A study of Gasterosteus aculeatus with 9 samples.

Results

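Gill transcripts of wild threespine sticklebacks (*Gasterosteus aculeatus*) from station C, the high-salinity site of a small catchment, were compared with those of fish from station A, the mid-salinity site. The comparison takes in 6 of the 9 fish that were sequenced, 3 from station C and 3 from station A, named here C1, C2 and C3 and A1, A2 and A3 by the replicate numbers of their labels. Chloride stood at 32 mg/L at station C and at 26.378 mg/L at station A. The 3 fish of station B, the reference site with 12.912 mg/L, enter no fit and are given beside the other values as B1, B2 and B3. All fish were wild, untreated, caught by electrofishing and killed with an anaesthetic, and 1 library was made from the gills of each fish without pooling. Each station is a single site (C in a tributary, A where that tributary meets the main channel), so chloride cannot be told apart from anything else in which the sites differ. Age and sex of the fish are not given in the sources used here.

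Gills exchange gas, salt, acid and nitrogen waste with the water. In fresh water the ionocytes of the gill, cells rich in mitochondria and sodium-potassium ATPase, take up sodium, chloride and calcium against the gradient, while pavement cells sealed by claudins limit the loss of salt. Mucus cells, pillar cells lining the blood channels, red blood cells, leucocytes and the muscle and cartilage of the filaments are the other cell types in the tissue. In bulk tissue, fewer cells of a type and less RNA per cell cannot be told apart.

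Counts summed to between 35003957 and 46214540 per fish at station C and to between 22049066 and 38378454 at station A. Transcripts carry the name of the most similar Swiss-Prot protein, 43772 of 98643 have 1, and their counts were added per name, which gave 10495 names. Levels are TMM-scaled CPM, which put libraries of unequal depth on 1 scale. The TMM factor was 0.572 in C2, against 1.12 and 1.13 in C1 and C3 and 1.02 to 1.09 at station A. This raised the printed levels of C2 relative to those of the other fish, beyond what its library total gives. A name stands for all transcripts with that protein match. Near-identical paralogues are thus merged, and a gene matched to proteins of several species can be split. C2 stood apart from every other fish. Its log2 CPM correlated with those of the other 5 fish at 0.685 to 0.717, against 0.938 to 0.968 between the others, and 21 tested liver names summed to 147782 CPM in C2, 715 and 777 CPM in C1 and C3, and 634 to 788 CPM at station A. The gill epithelium and ionocyte markers summed to 3232 CPM in C2, to 12548 and 13976 CPM in C1 and C3 and to 11998 to 15377 CPM at station A. The comparison was therefore also made with the 5 fish without C2. The level of C2 is given beside those of C1 and C3 for many names, but not for all in which it stands apart. Where it is left out, C2 need not resemble C1 and C3.

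No name was differentially expressed between stations C and A in the quasi-likelihood test of edgeR. Names were called where p, adjusted by the Benjamini-Hochberg method, did not exceed 0.05 and the log2 fold change passed 1 in either direction. With all 6 fish, 0 of 9075 names were called (0.0%), the smallest adjusted p was 0.212, and 286 names (3.15%) had an unadjusted p under 0.05, 131 of them higher (1.44%) and 155 lower (1.71%) at station C. Without C2, 0 of 9274 names were called (0.0%), the smallest adjusted p was 0.0523 for CTL2B, and 592 names (6.38%) had an unadjusted p under 0.05. The Wald test of DESeq2 with the same thresholds called 66 of 9892 names (0.667%), 30 higher (0.303%) and 36 lower (0.364%) at station C, and 144 of 9782 (1.47%) without C2, 34 higher (0.348%) and 110 lower (1.12%). Counts were also simulated with 1 common dispersion for all names (0.381 with all 6 fish, 0.164 without C2). In these, edgeR recovered 22 of 100 names changed 4-fold and 65 of 100 changed 8-fold with all 6 fish. Without C2 it recovered 57 and 99 of 100. DESeq2 recovered 48 and 87 of 100 with all 6 fish and 72 and 100 of 100 without C2, but it also called 27 and 34 unchanged names, where edgeR called 4 and 9. Real names differ in spread, so these rates hold for the simulated setting only, in which a change of 4-fold could go undetected. Values below are described as higher or lower without being called changed unless a test is named.

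The names with the smallest p above 5 CPM were led, on the side of station C, by a scaffold protein, an mRNA-binding protein and a mitochondrial enzyme. RB6I2 (ERC1), a scaffold of vesicle docking sites, had 154, 184 and 146 CPM in C1, C2 and C3, against 36.1, 41.9 and 42.9 CPM in A1, A2 and A3. Its log2 fold change was 1.98 ± 0.19 (SE), with an adjusted p of 0.212 in edgeR and of 1.74e-20 in DESeq2. CAH5B, a mitochondrial carbonic anhydrase, had 155, 180.1 and 149 CPM at station C, against 41.6, 38.6 and 48.3 CPM at station A, a log2 fold change of 1.89 ± 0.19 (SE). For both names all C fish lay more than 3-fold above every A fish.

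L14AA, a match to the *Xenopus* form of the P-body protein LSM14A, had 10.1, 11.4 and 11.8 CPM in the C fish and no count in any A fish. Against the limit of 3 counts in each A fish it was at least 113-fold higher. Another LSM14 match, LSM14, had 97.4, 97.6 and 97.2 CPM at station C, against 45.96, 51.4 and 55.9 CPM at station A. A transcript of a further match, LS14A, had 101, 65 and 157 counts in the C fish and none in the A fish. L14AA, LSM14 and LS14A may hold reads of the same gene. CTL2B, a choline transporter-like protein, had 155, 296 and 133 CPM in the C fish, against 30.5, 28.8 and 31.6 CPM in the A fish, with a log2 fold change of 2.66 ± 0.36 (SE), and of 2.24 ± 0.12 (SE) without C2. This was the name nearest to a call in edgeR without C2, with the adjusted p of 0.0523 given above.

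AMR1B, which matches the autophagy regulator Ambra1, had 108, 101 and 108 CPM at station C, against 47.0, 50.6 and 42.8 CPM at station A. TM266, a membrane protein related to voltage-gated channels, had 8.96, 25.2 and 9.44 CPM at station C, against 1.38, 0.764 and 0.709 CPM at station A. Ribosomal protein L4 under the name RL4 had 85.6, 212 and 86.0 CPM in the C fish, against 14.4, 20.7 and 31.5 CPM in the A fish, while the second match to the same protein, RL4A, had 510.0, 1309 and 559 CPM, against 579, 684 and 839 CPM. ENPL, the endoplasmic reticulum chaperone endoplasmin, had 13.4, 55.1 and 14.4 CPM at station C, against 1.78, 1.62 and 3.49 CPM at station A. The remaining names on this side were ZBED5, the sialyltransferase SIA4A (ST3GAL1) with 148, 143 and 138 CPM, against 74.5, 75.7 and 92.9 CPM, and the Hippo pathway kinase activator MOB1A with 147, 164 and 131 CPM, against 74.7, 91.9 and 72.2 CPM. In all 12 names every C fish exceeded every A fish, where 5.67% of all tested names did so, and this order follows in part from their choice by p. The order also rests in part on the TMM factor of C2. Scaled by library totals alone, C2 did not exceed every A fish for LSM14, SIA4A and MOB1A.

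On the side of station A the leading name was POLH, DNA polymerase eta, which copies past damaged bases. It had no count in any C fish and 15.8, 8.73 and 17.9 CPM in the A fish, so that it was at least 149.7-fold lower at station C against the limit of 3 counts. Most other names of this side differed by close to 2-fold, with narrow spreads. MYCT (SLC2A13), the proton-coupled myo-inositol transporter, had 43.6, 42.8 and 45.0 CPM in the C fish, against 94.7, 92.3 and 88.5 CPM in the A fish, a log2 fold change of -1.09 ± 0.14 (SE) with an adjusted p of 0.417 in edgeR and of 4.92e-24 in DESeq2. MPI, the mannose-6-phosphate isomerase, had 21.5, 19.0 and 22.4 CPM at station C, against 44.0, 45.6 and 40.3 CPM at station A.

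The centrosomal proteins CE290 and NEDD1 were both lower at station C. CE290 had 22.2, 20.3 and 23.7 CPM there, against 46.6, 40.9 and 49.2 CPM at station A, and NEDD1 had 27.9, 28.8 and 26.2 CPM, against 53.7, 52.5 and 48.9 CPM. MA2C1, an alpha-mannosidase, had 25.8, 29.8 and 31.1 CPM at station C, against 60.9, 54.6 and 57.9 CPM at station A, and P3C2A, a class II phosphoinositide 3-kinase, had 77.2, 58.9 and 79.0 CPM, against 173, 177 and 142 CPM. For BORC5, a subunit of the complex that positions lysosomes, the values were 15.6, 16.03 and 15.8 CPM at station C, against 31.9, 35.4 and 27.6 CPM at station A. SCAPE, WFDC1, COMD9 and the transcription factor KLF13 made up the rest, with KLF13 at 60.2, 53.6 and 74.5 CPM at station C, against 140.2, 153 and 120.3 CPM at station A. Fold changes of these 11 names other than POLH lay between -1.22 and -0.93 on the log2 scale, and no C fish overlapped an A fish in any of the 12, where 4.07% of all tested names had every C fish below every A fish.

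**Figure D1:**
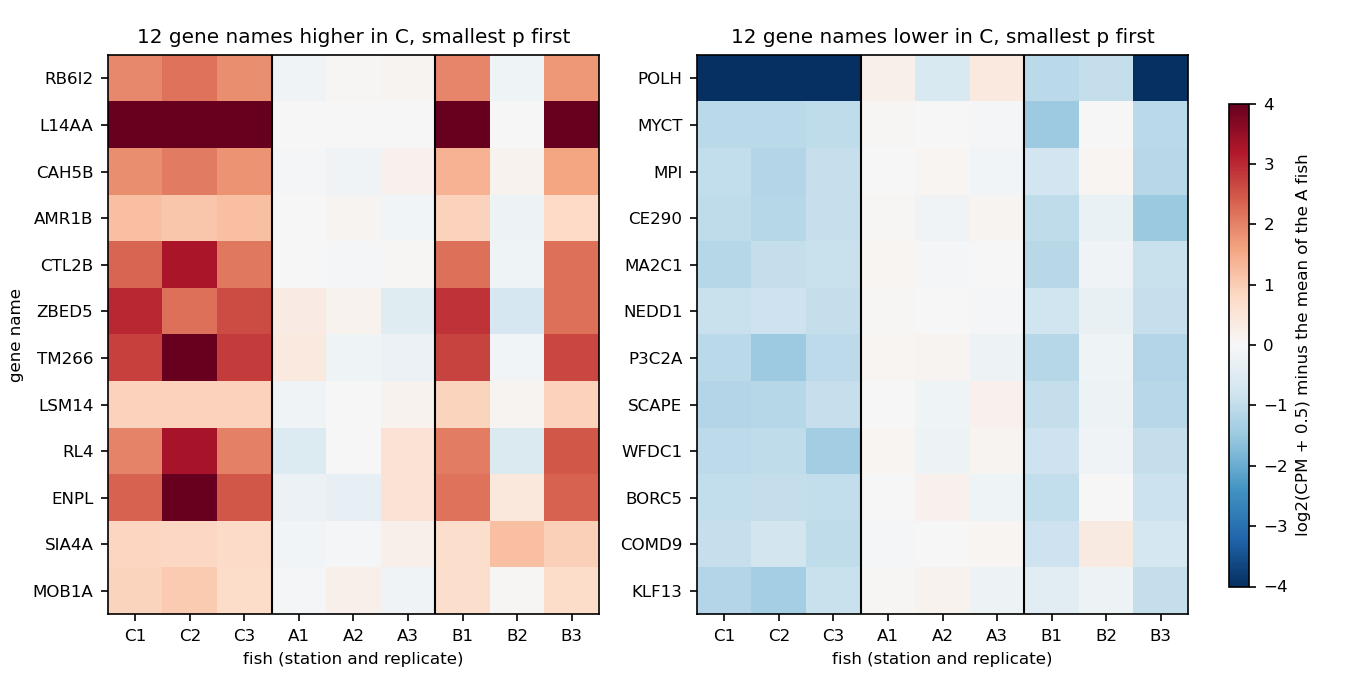
Level of the 12 names with the smallest p on each side of the comparison in each fish, as log2(CPM + 0.5) minus the mean of the 3 A fish (colour scale, limited to 4 in either direction). Fish run along the horizontal axis (C, A, then B) and names down the vertical axis. B1 and B3 resemble the C fish in nearly every row, while B2 resembles the A fish.

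Without C2 the 12 leading names on each side were in part others. DEN11, GRN2 and GNAI1 were among the names that joined those higher at station C. GRN2, a granulin, had 779 and 640.4 CPM in C1 and C3, 385 CPM in C2 and 213.6, 201 and 279 CPM at station A, with a log2 fold change of 1.61 ± 0.20 (SE). On the other side RLP24 (RSL24D1), a factor of ribosome assembly, had 180.1 and 180.3 CPM in C1 and C3, 430.2 CPM in C2 and 502, 553 and 509 CPM at station A, a log2 fold change of -1.54 ± 0.14 (SE) with an adjusted p of 0.143 in edgeR and of 2.17e-41 in DESeq2. The vesicle protein SYT12 had 30.6 and 33.1 CPM in C1 and C3, 62.9 CPM in C2 and 83.8, 77.5 and 98.9 CPM at station A. The myosin phosphatase subunit MYPT1, the calcium channel subunit CA2D4, the retinoblastoma relative RBL2 and the actin-binding twinfilin TWF1 had log2 fold changes between -1.14 and -0.90. BWNIN, ACOT4 and TMCC3 completed that list. ACOT4, a peroxisomal thioesterase, showed how far C2 can decide a value, with 18.9 and 18.6 CPM in C1 and C3, 304 CPM in C2 and 47.3, 42.3 and 41.9 CPM at station A.

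The fish of station B did not lie together for these names. RB6I2 had 156, 35.3 and 134 CPM in B1, B2 and B3, CTL2B had 139.8, 26.7 and 142 CPM and L14AA had 11.8, 0 and 11.8 CPM. MPI showed the mirror image with 24.98, 45.98 and 19.9 CPM, as did P3C2A with 73.5, 146 and 72.1 CPM. On the log2(CPM + 0.5) scale, B1 was nearer to the C mean than to the A mean for 12 of the 12 names higher at station C, B3 for 12 and B2 for 1. Of the 12 names lower at station C, B1 was nearer to C for 10, B3 for 12 and B2 for 0. Among all 92 names with an unadjusted p under 0.01, 69 (75%) had B1 and B3 nearer to C and B2 nearer to A, an order that 600 of the 9075 tested names (6.61%) had. Without C2 this was the case for 114 of 181 names (63%), against 763 of 9274 (8.23%). For most of these names C1, C2, C3, B1 and B3 thus lay together, apart from A1, A2, A3 and B2. The cause of this grouping was not tested.

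Among names that could be placed on a chromosome, those on the X chromosome were more often lower at station C. Threespine sticklebacks have XX females and XY males, and the sex of these fish is not given in the sources used here. Names were matched to gene symbols of the RefSeq annotation of the stickleback assembly fGasAcu3.hap1.1, which placed 2610 of the 9075 tested names (28.8%) on a chromosome by identical letters, 79 of them on the X chromosome. The median log2 fold change of these 79 names was -0.49, and that of the 2531 names on other chromosomes was 0.06. Of the 79, 60 had a negative value and 22 (27.8%) had an unadjusted p under 0.05 on the lower side, against 17 of 2531 (0.672%) on other chromosomes, where 1.71% of all tested names had such a p. On the higher side 4 of the 79 (5.06%) and 29 of the 2531 (1.15%) had such a p, where 1.44% of all tested names did. Every C fish lay below every A fish for 29 of the 79 X names (36.7%) and for 61 of the 2531 others (2.41%). Leaving out C2, the medians were -0.70 over 80 X names and 0.03 over 2562 others, and 37 X names (46.2%) and 31 others (1.21%) had an unadjusted p under 0.05 on the lower side, where 3.48% of all tested names did.

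By fish, the median log2 ratio of 75 X names with a mean of at least 1 CPM to the mean of the A fish was -0.69, -0.53 and -0.57 in C1, C2 and C3, and 0.01, -0.0049 and 0.04 in A1, A2 and A3. In B1, B2 and B3 it was -0.68, 0.06 and -0.75. Over the 2453 names on other chromosomes the same medians lay between -0.01 and 0.07 in all 9 fish. The 5 fish with low X values are those that lay together above. With a hand-made list of symbols for names that differ in spelling, 10 of the 12 leading names on the lower side had a place, and 9 of these were on the X chromosome. They were MPI, CE290, MA2C1, NEDD1, P3C2A, SCAPE, BORC5, COMD9 and KLF13. POLH was placed on chromosome 6. Of the names on the higher side, L14AA, LSM14, AMR1B and RL4 were also placed on the X chromosome and CTL2B on chromosome 9, but under 80% of that side had a place, so no share is given. Of the names that joined the lower side without C2, RLP24, SYT12, RBL2 and TWF1 were placed on the X chromosome. MYPT1, TMCC3 and CA2D4 were placed on chromosome 4. Under 80% of that side had a place as well, so no share is given. The part of the fish's sex in these values was not tested.

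**Figure D2:**
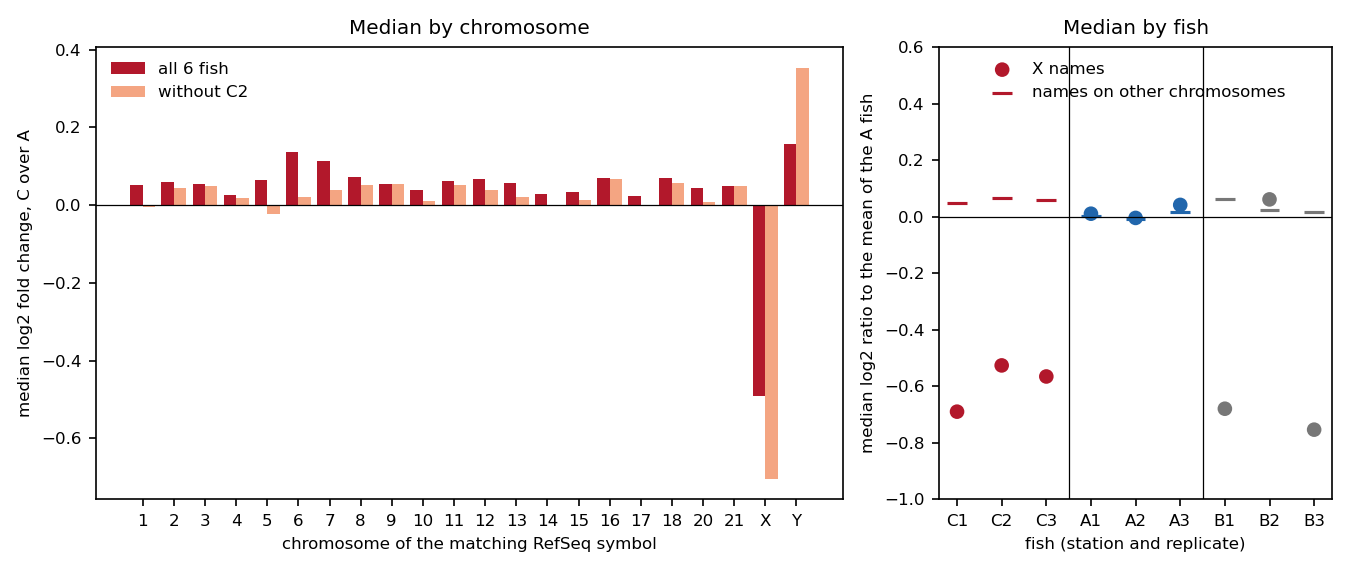
Left, median log2 fold change (C over A) of the names placed on each chromosome, for all 6 fish (dark bars) and without C2 (light bars), where Y holds a single name. Right, for each fish, the median log2 ratio to the mean of the A fish of the X names (points) and of the names on other chromosomes (dashes), in which C1, C2, C3, B1 and B3 lie between -0.53 and -0.75 for the X names.

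Single transcripts were also compared, since the sum over a name can hide transcripts that occur in some fish only. A transcript was counted as present with at least 30 counts and as absent with at most 3. Of the 98643 transcripts, 324 were present in every C fish and absent from every A fish. The reverse held for 140, present in every A fish and absent from every C fish. These limits are raw counts and were not scaled to depth. Counts summed to 22049066 in A1, 38378454 in A2 and 32391242 in A3, against 35003957 to 46214540 in the C fish. Presence was thus harder to reach in A1 and absence easier. The part of depth in the excess at station C was not tested. Of the 324, 270 were present in B1 and 257 in B3 but 47 in B2, and 269 were absent from B2. The 140 were spread more evenly, with 72 present in B1, 84 in B2 and 68 in B3. With at least 100 counts in every fish the numbers were 171 and 90, and without C2 they were 685 and 288.

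Of the 324 transcripts, 224 carried a name, 166 names in all. The most abundant was a transcript of ribosomal protein S17 (RS17) with 7928, 9767 and 11139 counts in C1, C2 and C3, no count in the A fish, and 9358, 0 and 10804 counts in B1, B2 and B3. A transcript of PDIA3, a disulfide isomerase of the endoplasmic reticulum, had 7035, 5528 and 10746 counts in the C fish, none in the A fish and 6514, 3 and 5878 in the B fish. Transcripts of the mitochondrial isocitrate dehydrogenase IDHP, of CTL2B, RL4, RB6I2, AMR1B and CAH5B, of the iron regulatory protein IREB2 and of the carnitine palmitoyltransferase CPT1A were also without a count in A1, A2, A3 and B2. Of these names, only CPT1A and RB6I2 also had transcripts that ran the other way by the same limits. A CPT1A transcript had no count in the C fish, 1022, 2115 and 1084 counts in the A fish and 0, 1296 and 0 in the B fish, and an RB6I2 transcript had none in the C fish, 273, 737 and 571 in the A fish and 0, 439 and 0 in the B fish. From the 140 transcripts of station A a pair was picked after the values were seen. A transcript of the lysosomal arylsulfatase ARSA had no count in the C fish, 1171, 1764 and 1973 in the A fish and 0, 1351 and 0 in the B fish. Other ARSA transcripts ran the other way, the most abundant with 1515, 941 and 1673 counts in the C fish and none in the A fish. In the B fish that transcript had 1350, 0 and 1330 counts. ARSA was placed on the X chromosome, as were PDIA3, RL4, AMR1B and IREB2. A transcript of IP3KB, an inositol trisphosphate kinase, had no count in the C fish. It had 1040, 1848 and 1350 counts in the A fish and 2030, 1483 and 1818 in the B fish. A transcript of the actin regulator WIPF1, named after its values were seen, was present at station C alone, with 2141, 2534 and 2427 counts in the C fish and no count in the A and B fish. Summed over all its transcripts, WIPF1 had 129.8, 158 and 129 CPM at station C, against 175, 177 and 106 CPM at station A, and RS17 had 792, 1859.7 and 824 CPM, against 938, 1026 and 1027 CPM. For WIPF1 the sums overlapped between the stations. For RS17 they did so only through C2, since C1 and C3 lay below every A fish. Assembled transcripts can be alleles or splice forms of the same gene, which were not told apart here.

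**Figure D3:**
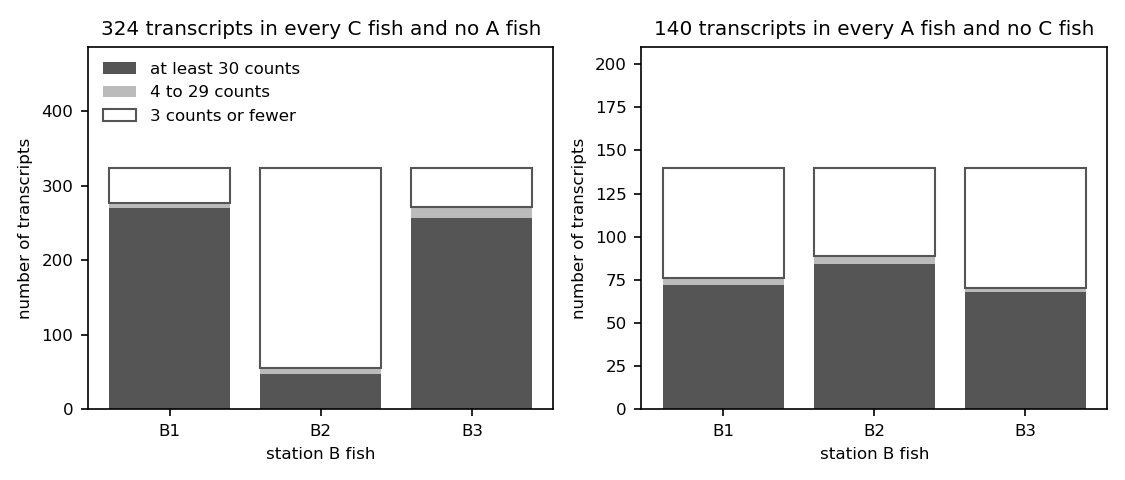
Number of transcripts (vertical axis) with at least 30 counts, 4 to 29 counts and 3 counts or fewer in each station B fish, among those present in every fish of 1 station and absent from every fish of the other. Of the 324 transcripts of station C, 270 and 257 were present in B1 and B3 and 47 in B2.

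DESeq2's 66 calls included names of low level as well as names of higher level. Those given here were chosen after their values were seen. The interferon regulatory factor IRF7 rose by 3.65 on the log2 scale in the Wald test of DESeq2, with 4.63, 4.69 and 3.43 CPM at station C, against 0.580, 0.310 and 0.148 CPM at station A, and 2.07, 0.1496 and 3.85 CPM in the B fish. FKBP5, a cochaperone of the glucocorticoid receptor, had 2.70, 1.60 and 2.07 CPM in the C fish and no count in any A fish, and 2.49, 0 and 2.63 CPM in the B fish. The metallothionein match MT had 1.96, 2.25 and 1.38 CPM at station C, against 0.402, 0.191 and 0.384 CPM at station A. The ciliary BBSome subunit BBS2, placed on the X chromosome, had 17.2, 39.3 and 19.0 CPM, against 8.66, 6.90 and 9.42 CPM. SQOR, which oxidizes sulfide in mitochondria, fell by 1.32 on the log2 scale, with 215, 131 and 199.6 CPM at station C, against 486, 466 and 387 CPM at station A, and was also placed on the X chromosome. KCJ10, an inward rectifier potassium channel, had 0.534, 0.300 and 0.767 CPM in the C fish, against 3.88, 6.37 and 3.75 CPM in the A fish. Of the 66 calls 52 (78.8%) were also made without C2, all in the same direction, and these were 36.1% of the 144 calls made then. In edgeR none of these names had an adjusted p under 0.212 with all 6 fish.

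A smaller group of names set station C apart from both other stations, or station A from both. These were chosen after the values had been seen, from names with an unadjusted p under 0.01 in edgeR. With all 6 fish, 3 of 92 such names (3.26%) had all B fish nearer to A, an order that 40.8% of all tested names had, and 4 (4.35%) had all B fish nearer to C, against 12.6%. Without C2 these were 21 of 181 (11.6%), against 23.4%, and 9 of 181 (4.97%), against 18.3%. C3AR, the receptor for the complement fragment C3a, had 13.2, 22.3 and 10.5 CPM at station C, against 5.71, 4.39 and 4.96 CPM at station A and 2.95, 6.28 and 5.10 CPM at station B. NR2C1, an orphan nuclear receptor, had 1.450, 2.00 and 2.23 CPM in the C fish and no count in any A or B fish. CO6A6, a chain of collagen VI, had 63.6, 43.7 and 61.3 CPM at station C, against 141, 115 and 182 CPM at station A, and 62.9, 53.8 and 67.5 CPM at station B. Its log2 fold change was -1.40 ± 0.26 (SE) and -1.23 ± 0.22 (SE) without C2, with an adjusted p of 6.06e-04 and 1.19e-04 in DESeq2 and of 0.548 and 0.255 in edgeR. GRN2 with 494, 471 and 504 CPM and SIA4A with 132, 188 and 158 CPM at station B also left station A on its own.

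Neither test called a name of the ionocyte transport list. Of its 31 tested names, 0 had an unadjusted p under 0.05 in edgeR, the median log2 fold change was -0.22 beside 0.02 for all tested names, and no name had all C fish on 1 side of all A fish. Without C2 the median was -0.31 over 32 names, 0 had such a p, and 4 did not overlap, with S12A2, TRPV5 and NAC1 higher (13.6% of all names) and CAHZ lower (10% of all names). AT1A1, the catalytic subunit of the sodium-potassium ATPase, had 2544, 725 and 2467 CPM in the C fish, against 5306, 3541 and 1016 CPM in the A fish, and 3088, 2648 and 1987 CPM in the B fish. The value of C2 and that of A3 were the low ones, and the log2 fold change was -0.81 ± 0.81 (SE), or -0.40 ± 0.67 (SE) without C2. The sodium-chloride cotransporter S12A3 had 1001, 11.9 and 1124 CPM at station C, against 1873, 2096 and 342 CPM at station A. SL9A3, the sodium-proton exchanger of the apical membrane, had 387, 0.300 and 369 CPM, against 955, 562 and 107 CPM, and RHCG1, an ammonia channel, had 461, 0.749 and 426 CPM, against 1843, 1148 and 249.8 CPM. In each of these names A3 lay below both other A fish and below C1 and C3, and the sum over the list was 8409, 2486 and 8424 CPM in C1, C2 and C3, against 15237, 14138 and 3881 CPM in A1, A2 and A3. The A fish thus spanned the values of C1 and C3.

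The 14 names of the V-type proton ATPase, which energizes sodium uptake in fresh water, had a median log2 fold change of -0.01, or 0.12 without C2, and none had an unadjusted p under 0.05. Among 24 names of the tight junction the medians were -0.43 and -0.01. Without C2, DESeq2 called 1 of them lower (1.12% of all names), and 4 had C1 and C3 above every A fish (13.6% of all names). The most abundant claudin, CLD4, had 1691, 9.94 and 2148 CPM in the C fish, against 1752, 2333 and 1484 CPM in the A fish. Its log2 fold change was -0.57 ± 1.45 (SE), and 0.04 ± 0.26 (SE) without C2. For 24 names of osmotic stress and hormone signalling the medians were -0.10 and -0.05, with FKBP5 the only one called by DESeq2. SGK1, the kinase that links corticosteroids to sodium transport, had 252, 143 and 229 CPM at station C, against 209, 242 and 196 CPM at station A.

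All 25 candidate genes that the study named for osmoregulation were tested as sums over their transcripts, and 0 were called in either test. Such sums can hide single transcripts. A transcript of FYV1 (PIKFYVE) had 495, 428 and 688 counts in the C fish, and 1 of VP26C had 162, 56 and 191. Both had no count in the A fish. The transcript of IP3KB given above, also a candidate, ran the other way. These transcripts were picked after the values were seen. Since the study picked the candidate genes on fish that include these, their values are no independent evidence. The median log2 fold change was -0.01, and 0.04 without C2. Perforin (PERF), a pore-forming protein of cytotoxic cells, had 194, 87.4 and 194 CPM in the C fish, against 742, 755 and 163 CPM in the A fish, of which A3 lay within the range of station C, and its log2 fold change was -1.83 ± 0.67 (SE). ANO9, an anoctamin, had 81.6, 3.85 and 79.6 CPM at station C, against 134, 144 and 105 CPM at station A and 65.3, 167 and 64.1 CPM in the B fish. Its log2 fold change without C2 was -0.67 ± 0.17 (SE), with an adjusted p of 0.514 in edgeR and of 0.0354 in DESeq2, under the fold that a call required. ABCE1, a ribosome recycling factor, had 112 and 107 CPM in C1 and C3, against 75.4, 81.5 and 88.0 CPM at station A, with 57.8 CPM in C2.

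Genes of cell division were higher in C1 and C3 than in the A fish for most of the list. Of 39 names tested without C2, 18 had an unadjusted p under 0.05 on the higher side and 0 on the lower, where 2.9% of all tested names had such a p on the higher side, and the median log2 fold change was 0.55 beside -0.01 for all. Both C fish lay above every A fish for 25 of the 39, where 13.6% of all names did so. Including C2, 5 of 37 names had such a p and the median was 0.40. CND1, a condensin subunit, had 49.9 and 56.7 CPM in C1 and C3, against 32.3, 32.1 and 34.8 CPM at station A, with 31.7 CPM in C2 and 38.4, 33.5 and 22.3 CPM in the B fish. The ribonucleotide reductase subunit RIR2, which supplies nucleotides for replication, had 81.6 and 111 CPM in C1 and C3, against 56.0, 51.0 and 52.2 CPM, cyclin A2 (CCNA2) had 21.5 and 27.1 CPM, against 11.5, 12.2 and 14.3 CPM, and the spindle checkpoint kinase TTK had 20.7 and 21.3 CPM, against 11.5, 12.7 and 13.1 CPM. The largest positive log2 fold change of the list was 0.97 ± 0.29 (SE) for the kinetochore motor CENPE, and MCM6, a replication helicase subunit, was the lowest with -1.05 ± 0.98 (SE). DESeq2 called 0 of the list in either fit. By adjusted p of at most 0.05 alone, without the fold, 7 of its names passed in DESeq2 without C2. The share of all names that passed by adjusted p alone was not counted, so these 7 cannot be weighed against it. By fish, the median of the 39 names relative to the A mean was 0.45, -0.15 and 0.66 on the log2 scale in C1, C2 and C3, and 0.23, 0.12 and -0.24 in B1, B2 and B3, so that B1 and B2 lay above B3.

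Proteasome subunits, which break down ubiquitin-marked proteins, had small positive values for most of the list. The median of 41 names without C2 was 0.20, 33 were positive, and 11 had C1 and C3 above every A fish (13.6% of all names). Including C2, the median of 38 names was 0.10, 24 were positive and 3 did not overlap on the higher side (5.67% of all names). PSA2 had 324 and 378 CPM in C1 and C3, against 259, 255 and 280.4 CPM at station A, with 201 CPM in C2. By fish, the list median relative to the A mean was 0.20, -0.29 and 0.13 in C1, C2 and C3. It was -0.02, -0.09 and 0.16 in A1, A2 and A3, so that A3 lay above C3. The B fish had 0.19, 0.28 and 0.06. For cytosolic ribosomal proteins the direction depended on C2. The median of 84 names was 0.18 with all 6 fish, and that of 90 names was -0.23 without C2, where 83 were negative and 26 had C1 and C3 below every A fish (10% of all names). RL6 had 1623 and 1667 CPM in C1 and C3, 4109.7 CPM in C2 and 1871, 2102 and 1984 CPM at station A. Apart from RL4, 0 of the 90 had an unadjusted p under 0.05. The 79 names of the respiratory chain and ATP synthase had a median of -0.20 without C2, with 64 negative, and 69 had a median of 0.29 with all 6 fish.

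Interferon response genes had positive values without C2, by unequal amounts, with C1 the highest fish. The median of the list relative to the A mean was 0.94, -0.85 and 0.13 in C1, C2 and C3. It was -0.07, 0.16 and -0.12 in A1, A2 and A3, so that C3 lay within the range of the A fish. The B fish had -0.42, 0.11 and 0.22. Without C2 all 15 tested names had a positive log2 fold change, the median was 0.55, 4 had an unadjusted p under 0.05 (2.9% of all names on the higher side), and 6 had C1 and C3 above every A fish (13.6% of all names). The antiviral GTPase MX had 553, 6.34 and 150.04 CPM in the C fish, against 136, 128 and 171 CPM in the A fish, so that C1 alone stood out. IFIH1, a sensor of double-stranded RNA, had 229.9 and 196 CPM, against 157, 177 and 137 CPM, and IRF3 had 64.4 and 36.8 CPM, against 27.9, 24.8 and 30.1 CPM. Including C2, the median was 0.12 and only IRF7, given above, had an unadjusted p under 0.05. CD209, a lectin of antigen-presenting cells, is not on this list and was chosen after its values were seen. It had 78.1, 33.0 and 34.8 CPM at station C, against 18.4, 25.1 and 13.97 CPM at station A. DESeq2 called it without C2 with an adjusted p of 0.0407.

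**Figure D4:**
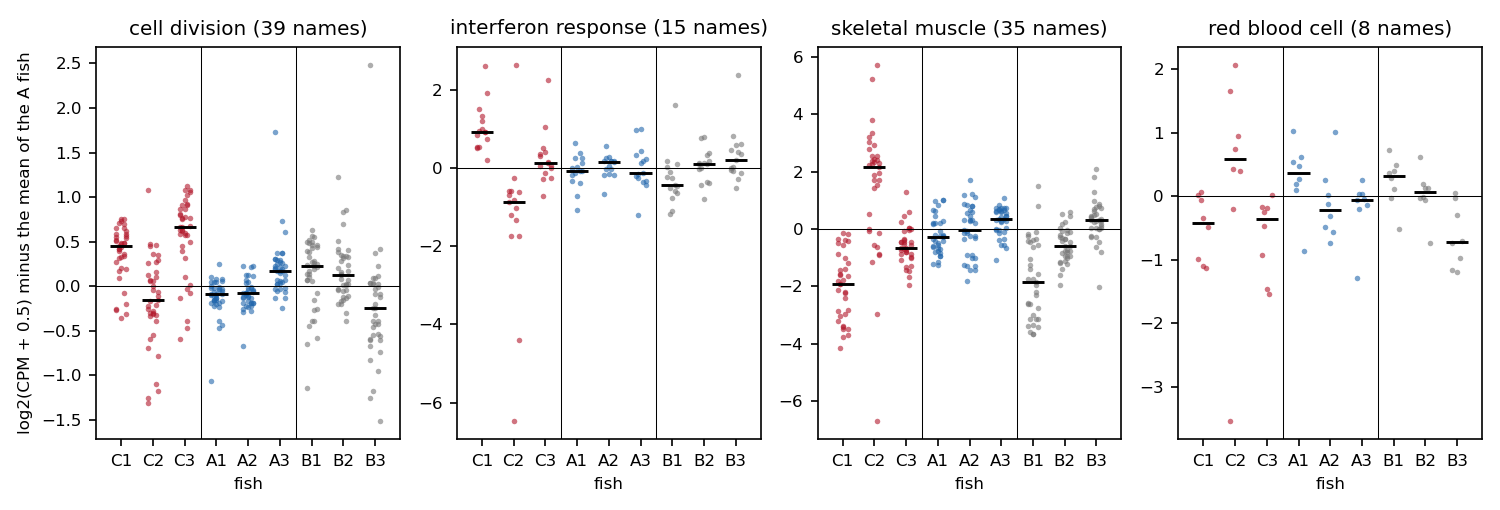
Members of 4 gene lists in each fish, as log2(CPM + 0.5) minus the mean of the 3 A fish (vertical axis), with C, A and B fish along the horizontal axis. Each point is a gene name and each bar the median of the list in that fish. Cell division lies above 0 in C1 and C3, muscle and red blood cell names lie mostly below 0 in these 2 fish, and the median of C2 lies on the other side of 0 from theirs in all 4 lists.

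Skeletal muscle and red blood cell genes were low in C1 and C3. Without C2, 34 of 35 skeletal muscle names were negative, the median was -1.36, 16 had C1 and C3 below every A fish (10% of all names), and DESeq2 called TNNT3 and TPM1, both lower (1.12% of all names). The fast troponin T TNNT3 had 51.5 and 203 CPM in C1 and C3, against 344, 742 and 639 CPM at station A, and 1462 CPM in C2. The list summed to 1239, 36155 and 3979 CPM in C1, C2 and C3, against 4700, 10951 and 7102 CPM in A1, A2 and A3, and 1243, 3884 and 8068 CPM in the B fish, so that C2 was the highest and C1 the lowest of the 9 fish. Including C2, the median was 0.69. All 8 red blood cell names were negative without C2, with a median of -0.42. Including C2, the median was -0.22, with 3 positive and 5 negative. The beta globin HBB2 had 3821 and 2857 CPM in C1 and C3, against 12746, 5597 and 8051 CPM at station A, with 16102 CPM in C2 and 11701, 9104 and 4222 CPM in the B fish, and the alpha globin HBA2 had 199.7 and 155 CPM, against 593, 257 and 513 CPM. Both were called lower by DESeq2 without C2 (1.12% of all names), with adjusted p of 0.0197 and 0.0321. How much muscle and blood went into each sample was not tested.

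Of 9 mucus names, 8 had a negative log2 fold change, or 7 without C2. MUC2L, a secreted mucin, had 284 and 534 CPM in C1 and C3, 3.50 CPM in C2 and 935, 1856 and 838 CPM at station A, and was called by DESeq2 without C2 with an adjusted p of 0.0384. The median of the list was -1.08 with all 6 fish and -0.54 without C2. GALT8, an enzyme that starts the glycosylation of mucins and was chosen after its values were seen, had 33.0 and 36.8 CPM in C1 and C3, against 145, 261 and 109 CPM at station A. The trypsin TRY4, a digestive enzyme made by the pancreas that was likewise chosen afterwards, had 0.178, 1.35 and 0.269 CPM in the C fish, against 33.9, 2139.8 and 282 CPM in the A fish and 0, 259.6 and 756 CPM in the B fish, and DESeq2 called it with an adjusted p of 6.14e-11. The A fish differed widely among themselves, and the 8 tested names of gut and pancreas had a median of -0.07. Whether tissue other than gill entered these samples was not tested.

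Clock and immediate early genes held a few of the lower names. The clock repressor CRY1 had 87.0, 120.3 and 85.3 CPM at station C, against 137, 142 and 143 CPM at station A, and the nuclear receptor NR1D1 had 21.98, 7.94 and 30.7 CPM, against 51.8, 64.2 and 45.2 CPM. Without C2 the adjusted p in DESeq2 was 1.21e-11 for CRY1, whose fold was under 2, and 0.00951 for NR1D1. The other 13 clock names had unadjusted p above 0.05 in both fits. The median log2 fold change of the 15 clock names was 0.03, and -0.01 without C2, with 8 and 7 positive. DUS6, a phosphatase induced by ERK signalling, had 15.2, 5.39 and 21.3 CPM in the C fish, against 40.5, 57.8 and 34.9 CPM in the A fish, and was called by DESeq2 without C2. DUS6 was placed on the X chromosome by the list of symbols. For the 25 immediate early names the median was -0.57, and -0.33 without C2, with 19 and 20 negative. By fish, the list median relative to the A mean was -0.54, -0.75 and 0.05 in C1, C2 and C3. It was 0.12, 0.08 and -0.31 in A1, A2 and A3 and 0.47, -0.07 and -0.08 in the B fish, so that C3 was not low. The hour of capture of each fish is not given in the sources used here, so that its part was not tested.

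Several enzymes were among the lower names. CATA, the catalase that breaks down hydrogen peroxide, had 94.7 and 106 CPM in C1 and C3, 1905 CPM in C2 and 246, 204 and 218 CPM at station A, with 117, 234 and 95.8 CPM in the B fish, and was called lower by DESeq2 without C2 with an adjusted p of 2.57e-11. CATA was placed on the X chromosome, as was HEXA, a lysosomal hexosaminidase with 104, 44.5 and 95.2 CPM at station C, against 191, 225 and 181 CPM at station A. The glycolytic enzyme G6PI had 169.5 and 194 CPM in C1 and C3, against 318, 355 and 320.0 CPM at station A. LDHA had 56.3, 72.7 and 117 CPM in the C fish, against 155, 154 and 186 CPM in the A fish. A single LDHA transcript ran the other way, with 436, 314 and 803 counts in the C fish and none in the A fish. Over the 19 glycolysis names the median was 0.22 with 12 positive, and -0.31 with 7 positive without C2. The cochaperone DNJA1 had 58.4 and 63.02 CPM in C1 and C3, 246 CPM in C2 and 115, 114 and 129 CPM at station A. Sterol and fatty acid synthesis had a median of 0.67 over 20 names, or 0.26 without C2, and 5 names had all C fish above all A fish (5.67% of all names). MBP, a myelin protein, had 192, 185 and 170.3 CPM at station C, against 370.3, 219 and 509 CPM at station A. The median of the neuron list was -0.91 with all 6 fish and -1.002 without C2. By fish, relative to the A mean, it was -1.06, -1.02 and 0.0001 in C1, C2 and C3. In A1, A2 and A3 it was 0.24, -1.19 and 0.59, so that A2 was the lowest of the 6 fish. The B fish had -1.29, -1.11 and -0.66.

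**Figure D5:**
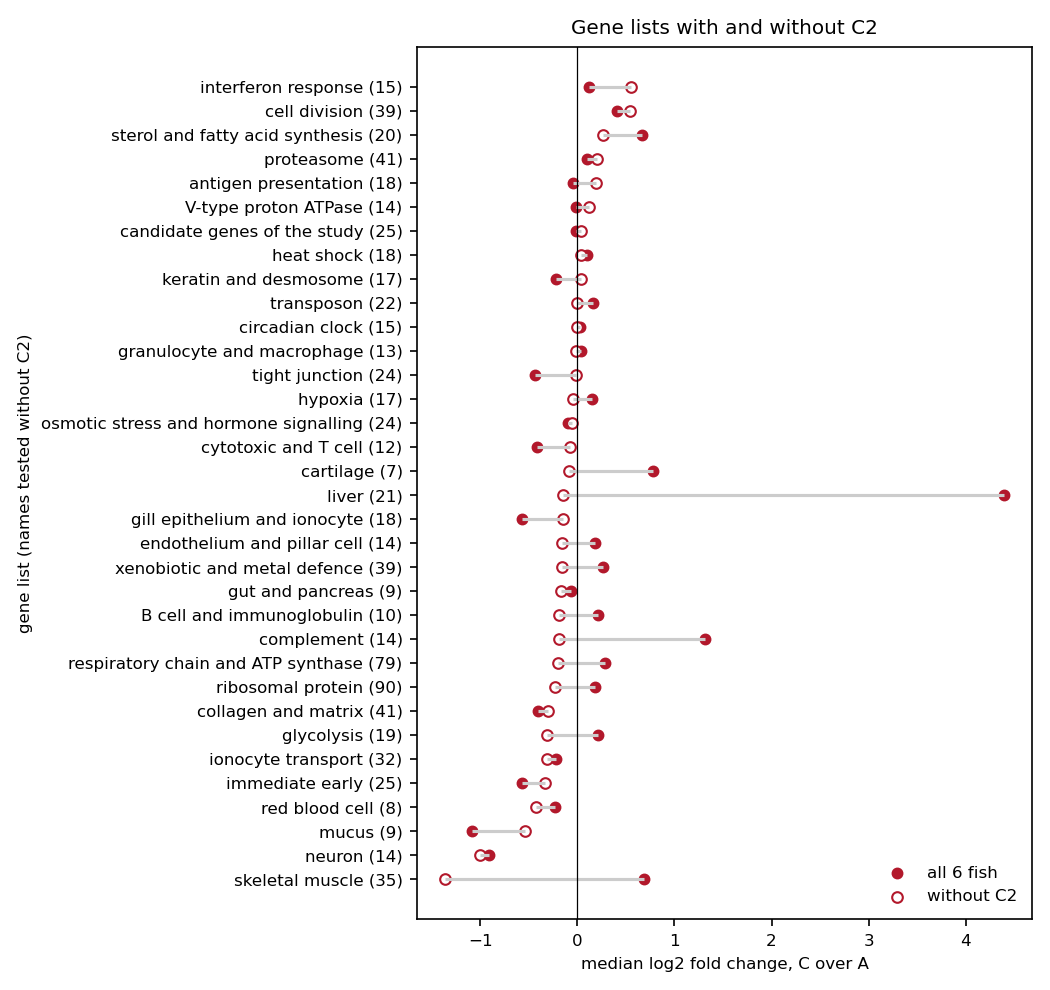
Median log2 fold change (C over A, horizontal axis) of each gene list, with all 6 fish (filled points) and without C2 (open points), and the number of names tested without C2 in brackets. Liver, complement and skeletal muscle move by more than 1 when C2 is left out, and cell division and sterol synthesis stay above 0 in both fits.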

How the data were processed

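RNA was extracted from the gills of 9 sticklebacks and sequenced as paired reads. The authors trimmed reads with Trimmomatic, assembled the reads of all fish with Trinity, removed weakly expressed transcripts, annotated the rest with Trinotate and deposited estimated counts made with Salmon, without normalization, for 98643 transcripts. A de novo assembly can split a gene into several transcripts, so estimated counts were summed per Swiss-Prot entry name and rounded. Between 84.4% and 91.1% of the counts of a fish carried a name.

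Stations C and A were compared with the quasi-likelihood test of edgeR 4.0.16 in R 4.3.3 (filterByExpr, TMM, library totals over all transcripts, no block). DESeq2 1.42.0 was an alternative. Python 3.11.15 and matplotlib 3.10.9 were used for summaries and figures. Each fit was tested on simulated data. The 12 names with the smallest p on each side and a mean of at least 5 CPM were named in each comparison, with members of gene lists chosen by level or p and the study's candidate genes. The comparison, lists and examples were chosen with earlier results of these data known, and the list of symbols that places names on chromosomes was written by hand after values had been seen. Each fish is 1 wild animal, so p-values measure the spread between 3 fish, or 2, at a single site. Other normalizations, filters, tests, sums and left-out fish were tried. Some gene names that the rule would give are not reported here. No sequences were used here.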

Additional observations from a re-analysis of the deposited data

How the results depend on the processing

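With all 6 fish the edgeR count of 0 became 1 when counts were summed per assembled gene, and DESeq2 called 66 names, 289 assembled genes and 1494 single transcripts. Without C2 the edgeR count became 1 with no normalization beyond the library total and 1 with no filter, and leaving out a further fish gave 0 to 1 calls (1 without C1). DESeq2 then called 144 of 9782 names, 430 of 50941 assembled genes and 3132 of 94222 transcripts when only C2 was left out. Sums per assembled gene and single transcripts were added after the data had been seen. Replicate numbers did not pair the fish (correlations of deviations 0.03, -0.13 and -0.10), and with the replicate block 0 names were called in either comparison. Without C2, the block turned the log2 fold changes of AT1A1 (0.10), S12A3 (0.40) and SL9A3 (0.23), and leaving out a fish gave -0.83 to 0.13 for AT1A1, -1.01 to 0.17 for SL9A3 and -0.13 to 0.25 for CLD4. Over all 6 fish the range was -1.17 to 0.0401 for CLD4 and -0.24 to 0.15 for SGK1, both positive without C2. Without normalization the list medians of all 6 fish were -0.66 for ionocyte transport, -0.17 for B cell and immunoglobulin, -0.19 for circadian clock, -0.12 for transposon, -0.11 for candidate genes of the study. With the replicate block the list medians of all 6 fish were -0.73 for ionocyte transport, 0.96 for liver, 0.29 for cartilage, -0.0216 for transposon. Without a filter the list medians of all 6 fish were 6.87 for complement, 8.78 for liver. In DESeq2 the list medians of all 6 fish were 6.90 for complement, 8.91 for liver. Leaving out 1 fish moved these medians over the following ranges: antigen presentation -0.44 to 0.19, B cell and immunoglobulin -0.19 to 0.53, complement -0.19 to 1.96, heat shock -0.0465 to 0.52, xenobiotic and metal defence -0.16 to 0.39, glycolysis -0.31 to 0.53, collagen and matrix -0.55 to 0.0094, sterol and fatty acid synthesis 0.26 to 1.00, liver -0.15 to 6.12, skeletal muscle -1.36 to 1.21, cartilage -0.0901 to 1.23, transposon -0.0538 to 0.17, candidate genes of the study -0.0554 to 0.066. The lower end was the value without C2 for B cell, complement, xenobiotic defence, glycolysis, sterol synthesis, liver, skeletal muscle and cartilage, and the upper end was for antigen presentation. The cause of these moves was not tested. Among single genes named, 796 values kept direction and side of the threshold with all 6 fish, 33 newly passed it and 3 turned, against 971, 41 and 8 without C2. No normalization shifted the median of all names by -0.13 with all 6 fish and by 0.10 without C2. On the scale of the printed levels a count of 3 corresponds to between 0.0575 CPM in C3 and 0.1498 CPM in C2, which bounds what a 0 can show.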
